A study of Mus musculus with 2 samples.

Results

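The cholesterol and fatty acid synthesis genes are 34 genes that make sterols and fatty acids, sense sterols, or store and move them. They were taken by symbol from a list in pathway order, with no measured value in the rule, and all 34 were found among 42462 genes with a symbol (43346 gene rows in all). By role, 7 act in the mevalonate pathway, 11 between squalene and cholesterol, 5 in sterol sensing, 5 in sterol storage and movement, and 6 in fatty acid synthesis. The cells were MEL, a mouse erythroleukemia line, given 2% dimethyl sulfoxide (DMSO) for 5 days, which sets such cells on the path to hemoglobin synthesis. Polyadenylated RNA was sequenced from 1 group of 2 biological replicates. No untreated group was analysed here, so the values are levels and say nothing of a response to DMSO. The labels give both replicates 1 shared identifier for the cells, so the spread between them may be technical.

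Cholesterol is built from acetyl-CoA through mevalonate, isoprenoid diphosphates and squalene, and then by a long series of sterol enzymes in the endoplasmic reticulum. Its supply is set by the SREBP transcription factors, which the escort protein SCAP carries to the Golgi when sterols are low and which INSIG proteins hold back when sterols are high. SREBPs also drive fatty acid synthesis, which shares the acetyl-CoA precursor. Red cell precursors need cholesterol for the plasma membrane while they divide, and the mature mouse red cell can no longer make it.

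Replicate 1 held 26149725 estimated reads and replicate 2 held 14149299, which puts the limit for a gene at 0 reads at 0.115 and 0.212 CPM (3 counts, counting error only). The label of the cells was checked against marker genes. All 10 erythroid markers had at least 1 TPM in both libraries, with sums of 28238 TPM in replicate 1 and 76743 TPM in replicate 2. Of 7 hepatocyte markers none did (sums 0.79 and 0.88 TPM, all from Apoa1, with Alb, Ttr, Afp, Cyp2e1, Tat and Serpina1a at 0). Of 6 adipocyte markers only Retn did (sums 2.27 and 3.26 TPM, all from Retn, with Adipoq, Lep, Plin1, Cidec and Fabp4 at 0). Of 6 steroidogenic markers only Star did (sums 2.44 and 3.25 TPM), and of 6 macrophage markers only Cd68 did (sums 4.07 and 8.43 TPM, with Mrc1 and C1qa at 0).

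Nearly all of the 34 listed genes had RNA above the detection level used here, and their median level was moderate. The list was chosen with earlier results of these data known and does not hold every gene of these pathways. Gene levels count all RNA of a gene, coding or not. With a level of at least 1 TPM (a level per unit of transcript length, scaled to the library) in both libraries as detection, 33 of the 34 genes were detected, against 45.5% of 21474 protein-coding genes. The exception was the desaturase gene Scd1. At 10 TPM or more in both libraries stood 14 of the 34, against 24.7% of protein-coding genes. The median level of the 34 was 11.1 TPM (9.20 in replicate 1 and 13.2 in replicate 2), against 15.5 TPM for the protein-coding genes that passed detection and 0.6 TPM for all of them. All 34 together took 0.165% of reads in replicate 1 and 0.267% in replicate 2. In bulk RNA, fewer cells that express a gene and less of its RNA per cell cannot be told apart.

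**Figure D1:**
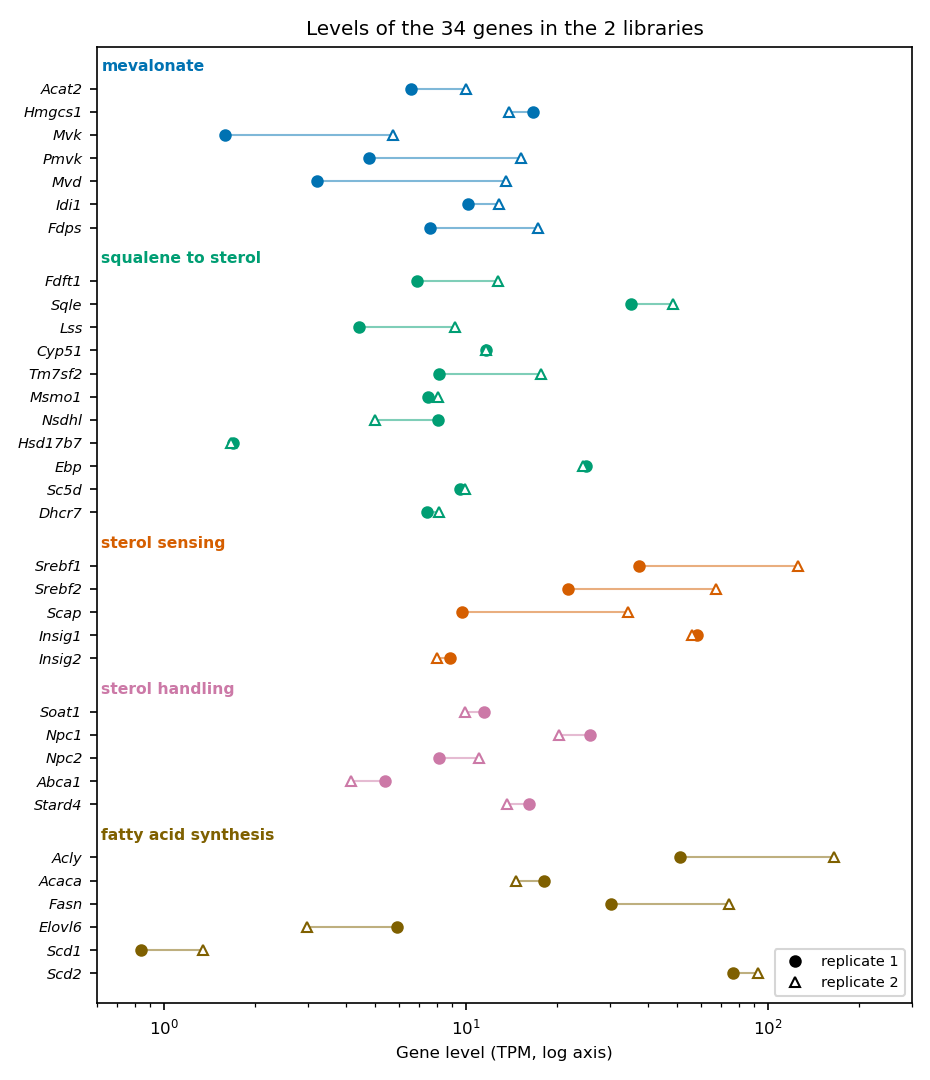
Level of each of the 34 genes in TPM (log axis), with a filled circle for replicate 1, an open triangle for replicate 2 and a line joining them, grouped by role. Acly, Scd2, Srebf1, Insig1 and Fasn lie furthest right and Scd1 and Hsd17b7 furthest left. The line is long for Mvk, Mvd, Pmvk, Scap, Srebf1, Srebf2 and Acly and almost absent for Cyp51, Ebp, Hsd17b7 and Insig1.

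Promoter sequence was available for 27 of the 34 genes (35 windows of 250 bases before to 50 after a RefSeq start, build GRCm38.p6; some windows of 1 gene overlap). Shown are 4 genes that recur in the results: the HMG-CoA synthase gene, a sterol sensor with like levels in both libraries, an SREBP gene and the fatty acid synthase gene. Capitals mark matches, on either strand, to TCACNCCAC (a sterol response element pattern), CACGTG (an E-box that SREBPs can also bind), CCAAT (bound by NF-Y), GGGCGG (bound by SP1) and AGATAA (bound by GATA factors). The first base of each line lies furthest before the start, which is base 251. The windows are Hmgcs1, chr13:119690101-119690400, plus strand; Insig1, chr5:28071162-28071461, plus strand; Srebf2, chr15:82147019-82147318, plus strand; and Fasn, chr11:120824498-120824797, minus strand.
Hmgcs1: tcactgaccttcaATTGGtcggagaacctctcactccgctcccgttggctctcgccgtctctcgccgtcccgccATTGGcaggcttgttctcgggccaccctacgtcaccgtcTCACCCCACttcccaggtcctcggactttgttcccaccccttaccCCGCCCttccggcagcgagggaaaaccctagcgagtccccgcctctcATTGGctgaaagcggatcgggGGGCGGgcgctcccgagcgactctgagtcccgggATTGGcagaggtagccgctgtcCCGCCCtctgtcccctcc
Insig1: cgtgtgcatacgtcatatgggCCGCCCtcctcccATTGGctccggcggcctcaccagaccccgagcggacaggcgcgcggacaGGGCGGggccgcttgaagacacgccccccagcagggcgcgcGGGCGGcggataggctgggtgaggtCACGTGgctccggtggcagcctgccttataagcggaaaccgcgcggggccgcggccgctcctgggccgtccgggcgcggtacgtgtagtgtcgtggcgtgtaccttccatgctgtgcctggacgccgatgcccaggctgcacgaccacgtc
Srebf2: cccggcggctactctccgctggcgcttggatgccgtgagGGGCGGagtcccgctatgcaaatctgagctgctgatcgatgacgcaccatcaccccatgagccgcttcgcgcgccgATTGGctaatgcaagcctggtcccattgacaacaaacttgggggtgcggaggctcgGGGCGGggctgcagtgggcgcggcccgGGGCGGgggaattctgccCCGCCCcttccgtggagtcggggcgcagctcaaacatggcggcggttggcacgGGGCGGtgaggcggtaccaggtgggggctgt
Fasn: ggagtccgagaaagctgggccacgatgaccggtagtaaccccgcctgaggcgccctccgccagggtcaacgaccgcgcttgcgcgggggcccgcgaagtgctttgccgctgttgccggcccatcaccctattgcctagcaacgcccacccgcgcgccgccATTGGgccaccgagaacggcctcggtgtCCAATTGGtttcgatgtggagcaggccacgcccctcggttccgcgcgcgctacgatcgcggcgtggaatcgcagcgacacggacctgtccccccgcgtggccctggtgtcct
TCACNCCAC occurred in 1 of the 35 windows, that of Hmgcs1 (TCACCCCAC, from 137 bases before the start), against 1.24% of 32851 windows in the whole table. CACGTG was in 7 windows of 6 genes (Abca1, Dhcr7, Hsd17b7, Insig1, Sc5d and both overlapping windows of Scap), 20% against 7.15%. CCAAT was in 23 windows (65.7% against 37.4%) and GGGCGG in 27 (77.1% against 35.7%). AGATAA was in 2, of Insig2 and Npc2 (5.71% against 11.2%). The windows of the 34 genes were also richer in G and C, with a median of 62.3% against 52.7% over the table, and its part in the counts of G- and C-rich motifs was not tested. A match here is a string of letters and not a shown binding site.

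The 7 mevalonate genes were all detected, with a median of 10.02 TPM and means from 3.67 to 15.3 TPM. Acat2, which condenses acetyl-CoA, had 6.55 TPM in replicate 1 and 10.01 TPM in replicate 2. Hmgcs1, the HMG-CoA synthase gene whose promoter holds the TCACNCCAC match, had 16.7 and 13.9 TPM (15.3 ± 1.959, SD, n = 2), the highest mean of the 7. The 3 enzymes that turn mevalonate into isopentenyl diphosphate were each more than 2-fold higher in replicate 2. Mvk, mevalonate kinase, had 1.59 TPM in replicate 1 and 5.74 TPM in replicate 2. Pmvk, phosphomevalonate kinase, had 4.78 and 15.3 TPM. Mvd, the decarboxylase, had 3.22 and 13.6 TPM (8.40 ± 7.32, SD, n = 2). Idi1, which isomerises isopentenyl diphosphate, had 10.2 and 12.8 TPM, which put replicate 2 higher, but on scaled counts it was 1.60-fold higher in replicate 1. Fdps, which joins isoprenoid units to farnesyl diphosphate, had 7.59 and 17.3 TPM and was likewise higher in replicate 2.

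Near-identical gene copies leave some of these values uncertain. The processed pseudogene Gm13502 is 100% identical to Idi1 over 684 bases and was given 162 estimated reads in replicate 1 and 11.6 in replicate 2, beside 693 and 290.4 for Idi1 itself. The leading Idi1 transcript also differed: Idi1-201 (3027 bases) had 9.41 TPM in replicate 1 and 5.38 in replicate 2, while a coding transcript of 737 bases had 0.77 and 7.28. Fdps has 3 copies above 95% identity (Gm3571, Gm8163 and Gm5873), of which only Gm5873 had reads, 2.85 in replicate 1 and 0 in replicate 2.

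The 11 genes from squalene onward were all detected, with a median of 9.74 TPM, and Sqle stood highest. Sqle, squalene epoxidase, the first oxygen-requiring step, had 35.3 TPM in replicate 1 and 48.4 TPM in replicate 2 (41.8 ± 9.27, SD, n = 2). Fdft1, squalene synthase, the step before it, had 6.89 and 12.8 TPM, and Lss, which closes the rings to lanosterol, had 4.42 and 9.22 TPM. The Sqle range did not overlap that of either neighbour in the route. Of the Fdft1 exon bases 18.3% also lie in exons of Ctsb on the opposite strand, and no source used here says whether the libraries keep strand.

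Of the sterol enzymes after lanosterol, 6 of 8 had like TPM in both libraries and Nsdhl and Tm7sf2 did not. Cyp51, lanosterol demethylase, had 11.6 and 11.7 TPM in replicates 1 and 2. Msmo1, the methylsterol oxidase, had 7.47 and 8.05 TPM. Hsd17b7, the ketosterol reductase, had 1.69 and 1.66 TPM, the lowest of the 11. Their SDs were 0.0283, 0.410 and 0.0212 TPM, small beside the distance from Sqle. Ebp, the sterol isomerase, had 24.9 and 24.4 TPM (1.38 and 7.29 TPM on coding transcripts), Sc5d, the desaturase, had 9.56 and 9.92 TPM, and Dhcr7, the reductase that ends 1 branch, had 7.42 and 8.15 TPM. Nsdhl, the decarboxylating dehydrogenase, was higher in replicate 1 (8.05 TPM, against 4.99 TPM in replicate 2). Tm7sf2, a sterol reductase of the same step as Lbr, had 8.11 and 17.7 TPM, and 12.1% of its exon bases are shared with Vps51 on the same strand.

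Genes of sterol sensing were all detected, with a median of 44.6 TPM. It was the highest of the 5 roles over the mean of both libraries, but in replicate 1 it was 21.8 TPM, below the 24.1 TPM of fatty acid synthesis. Srebf1 (chromosome 11, 60199089 to 60222581, minus strand, mm10), which encodes SREBP-1, had 37.3 TPM in replicate 1 and 126 TPM in replicate 2. Srebf2 (chromosome 15, 82147181 to 82205379, plus strand), which encodes SREBP-2, the main regulator of cholesterol genes, had 21.8 and 67.3 TPM. Scap had 9.70 and 34.5 TPM. In all 3 replicate 2 was the higher library. Insig1 had 58.3 and 56.1 TPM (57.2 ± 1.52, SD, n = 2) and Insig2 8.84 and 8.00 TPM, and for neither was replicate 2 the higher library. Within a library, Insig1 exceeded Insig2 by 6.59-fold in replicate 1 and 7.02-fold in replicate 2.

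Which SREBP gene was higher depended on the transcripts counted. On deposited gene TPM, Srebf2 was at 0.584 times Srebf1 in replicate 1 and 0.534 times in replicate 2. Counting only transcripts annotated as coding, Srebf2 kept 21.8 and 67.3 TPM and Srebf1 had 5.72 and 16.5 TPM, so Srebf2 was 3.81-fold and 4.08-fold above Srebf1. Most of the Srebf1 TPM lay on short transcripts annotated as processed and without a coding sequence. Srebf1-210 (662 bases) held 59.5% of it in replicate 1 and 48.6% in replicate 2, and Srebf1-208 (686 bases) held 14.1% and 23.7%. Srebf1-210 took 32.3% and 28.6% of the gene's estimated reads. The full-length Srebf1-201 (4299 bases) held 14.4% and 12.1% of TPM but 53.9% and 48.8% of reads. A short transcript turns few reads into a large TPM, and for Srebf1 that changes its rank among the 34 genes.

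**Figure D2:**
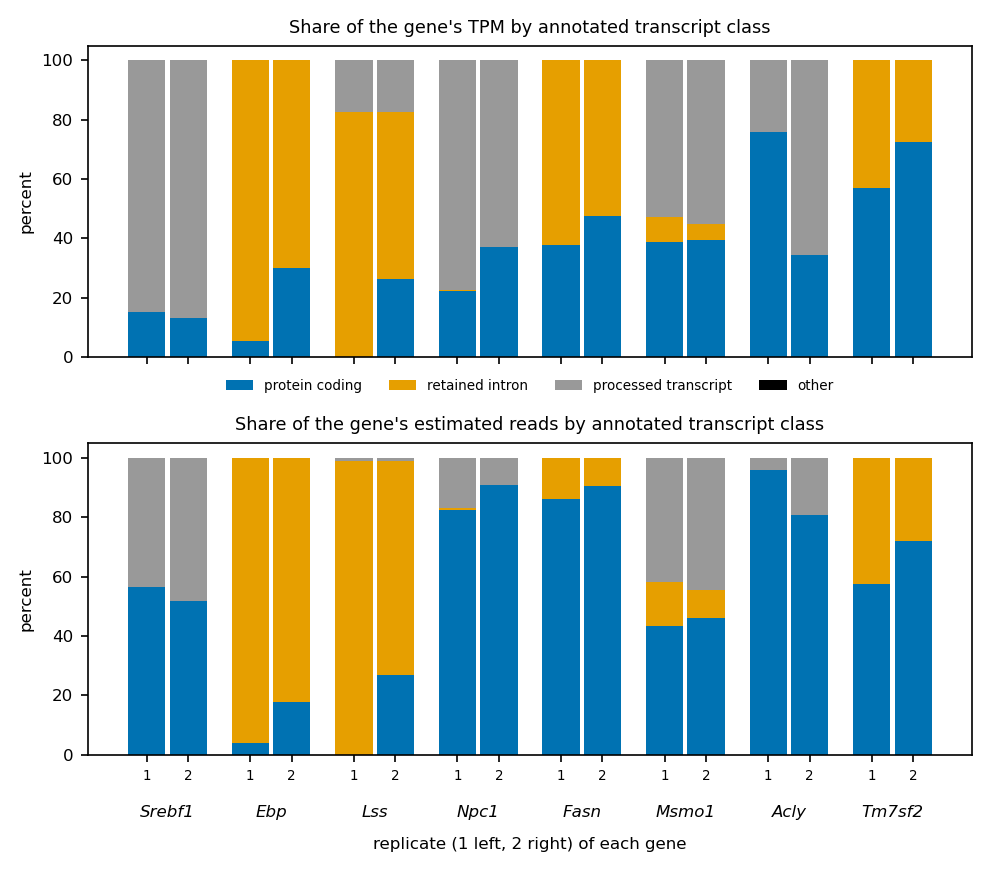
Share of each gene's TPM (upper panel) and of its estimated reads (lower panel), in percent, by annotated transcript class, for 8 of the 34 genes with replicate 1 left and replicate 2 right. Coding transcripts held 15.3% and 13.1% of Srebf1 TPM but 56.4% and 51.9% of its reads, whereas Ebp had a small coding share in both panels.

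Other members also had much of their TPM on transcripts without a coding sequence. Among the 19 genes of the set that averaged 10 TPM or more, the leading transcript was not annotated as coding in either library in 4 (Srebf1, Ebp, Npc1 and Fasn), or 21.1%, against 16.3% of 6251 protein-coding genes at that level. The share among the 19 was thus near the background. In 3 of the 19 (Pmvk, Idi1 and Acly), or 15.8%, the leading transcript differed between the libraries, against 24.2% of the 6251. For Ebp the retained-intron transcript Ebp-202 (1034 bases) led by either measure, with 64.7% and 63.3% of TPM and 74.7% and 77.1% of reads. Coding transcripts of Ebp had 1.38 TPM in replicate 1 and 7.29 TPM in replicate 2, far below its gene level of 24.6 ± 0.375 TPM (SD, n = 2). For Fasn a retained-intron transcript of 971 bases held 62.2% and 50.5% of TPM but 13.8% and 9.32% of reads, while the 9587-base coding Fasn-201 held 86.2% and 90.4% of reads. Pmvk was led by Pmvk-201 (36.4% of TPM) in replicate 1 and by Pmvk-202 (62.0%) in replicate 2, both coding.

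Below 10 TPM, 2 further genes had a leading transcript without a coding sequence in both libraries. Lss-204, a retained-intron transcript of 6992 bases, held 64.1% and 31.0% of Lss TPM. The coding Lss-201 had 0 reads assigned in replicate 1 and 155 in replicate 2. Msmo1-206, a processed transcript, held 52.7% and 55.1% of Msmo1 TPM. For these genes the total level describes all RNA of the locus, and the messages for the enzyme were a smaller and less certain part of it. In 24 of the 34 genes, coding transcripts held at least 90% of TPM in both libraries. For this count and for the 2 genes below 10 TPM, no share over all protein-coding genes is given here. Neither count is therefore read as a trait of the 34.

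The genes for storing and moving sterols were all detected, with a median of 10.7 TPM. Soat1, which esterifies cholesterol for storage, had 11.5 TPM in replicate 1 and 9.90 TPM in replicate 2. Npc1 and Npc2 encode the membrane and soluble proteins that let cholesterol leave the lysosome. Npc1 had 25.8 and 20.4 TPM, but its coding transcript had 5.78 and 7.60 TPM, because a 352-base processed transcript held 77.5% and 62.7% of TPM on 17.0% and 9.10% of reads. Npc2 had 8.14 and 11.1 TPM, all on its coding transcript. Counted on coding transcripts alone, the level of Npc1 was therefore below that of Npc2 in both libraries, the opposite of their gene levels. Abca1, the pump that passes cholesterol to lipoproteins, had 5.38 and 4.15 TPM, and Stard4, a carrier of sterol between membranes, had 16.1 and 13.7 TPM.

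Fatty acid synthesis held both the highest and the lowest of the 34 genes. Acly, ATP citrate lyase, which makes the acetyl-CoA that both pathways use, had 51.2 TPM in replicate 1 and 165 TPM in replicate 2 (108 ± 80.6, SD, n = 2). Its coding transcripts had 38.9 and 57.1 TPM, since the 584-base processed transcript Acly-206 held 19.6% of TPM in replicate 1 and 64.9% in replicate 2. On TPM, the Acly difference between the libraries was thus mostly in a transcript without a coding sequence. By reads Acly-206 was a smaller part, with 3.18% of the gene's reads in replicate 1 and 19.1% in replicate 2. Acaca, acetyl-CoA carboxylase, had 18.1 and 14.7 TPM, of which the 684-base coding Acaca-208 held 63.7% and 57.2% and the 9026-base Acaca-201 held 21.9% and 41.8%. By reads the order was turned, with 75.3% and 90.4% on Acaca-201. Fasn, the fatty acid synthase gene, had 30.2 and 74.5 TPM in all and 11.4 and 35.4 TPM on its coding transcript. Elovl6, which lengthens palmitate, had 5.91 and 2.97 TPM and was the single member at least 2-fold higher in replicate 1 on scaled counts.

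The stearoyl-CoA desaturases, which put the first double bond into saturated fatty acids, were strongly unequal. Scd2 (chromosome 19, 44293674 to 44306864, plus strand, mm10) and Scd1 (chromosome 19, 44394455 to 44407879, minus strand) lie in 1 gene cluster. Scd2 had 76.5 TPM in replicate 1 and 92.9 TPM in replicate 2 (84.7 ± 11.6, SD, n = 2), from 10018 and 6879 estimated reads. Scd1 had 0.840 and 1.35 TPM, from 97.4 and 88.4 estimated reads. Scd2 exceeded Scd1 by 91.0-fold in replicate 1 and 68.8-fold in replicate 2, a mean log2 ratio of 6.31 ± 0.29 (SD, n = 2). Their transcripts align at 88.0% identity over 1195 bases, and at 95.5% over 623 bases for the closest transcripts, so some Scd1 reads may be Scd2 reads. The other desaturase genes of the cluster were low too, with Scd3 at 0.840 ± 0.170 TPM and Scd4 at 0.290 ± 0.141 TPM (SD, n = 2).

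Ranked by mean gene TPM the order began Acly, Scd2, Srebf1, Insig1, Fasn, Srebf2 and Sqle, and the SDs of Acly, Srebf1, Fasn and Srebf2 (80.6, 62.8, 31.3 and 32.2 TPM) are too wide to order these neighbours. Ranked by coding transcripts it began Scd2 (84.7 ± 11.6 TPM), Insig1 (57.2 ± 1.52), Acly (48.0 ± 12.9), Srebf2 (44.6 ± 32.2), Sqle (40.5 ± 9.59) and Fasn (23.4 ± 17.0; SD, n = 2 each). Scd2 and Insig1 stood above Sqle in both libraries by either measure. The ranges of Acly, Srebf2 and Sqle overlapped on the coding scale.

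Differences between the libraries followed base composition. The ratio here is that of replicate 1 over replicate 2 in counts scaled by TMM, 1 library against 1, with no test. All 34 genes averaged 10 counts or more, and 8 of them differed by at least 2-fold, against 28.5% of 11453 protein-coding genes past the same filter. Higher in replicate 2 were 7 (Mvk, Pmvk, Mvd, Srebf1, Srebf2, Scap and Fasn), against 12.4% of protein-coding genes, and higher in replicate 1 was 1 (Elovl6), against 16.1%. The log2 ratio was -1.34 for Mvk, -1.15 for Pmvk, -1.82 for Mvd, -1.39 for Srebf1, -1.38 for Srebf2, -1.58 for Scap, -1.32 for Fasn and 1.24 for Elovl6. On the ratio of TPM the split moved: 11 of the 34 were 2-fold higher in replicate 2 and none in replicate 1, against 21.1% and 10.8% of protein-coding genes, and the median log2 ratio of protein-coding genes moved to -0.24, against 0.02 with TMM. For 6 genes (Idi1, Cyp51, Msmo1, Sc5d, Npc1 and Acaca) TPM and scaled counts were higher in different libraries. The same count over all protein-coding genes is not given here, so it is not read as a trait of the 34.

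The 7 genes higher in replicate 2 had transcripts of 56.4% to 59.8% G and C (median 58.9%), Elovl6 had 44.0%, and the other 26 ranged from 41.5% to 59.3% (median 47.4%). Across the 34 genes the log2 ratio and GC content had a Spearman rho of -0.89 and a Pearson r of -0.92, and across 8894 protein-coding genes that averaged 100 counts or more the rho was -0.78. These are correlations over genes of the same pair of libraries and carry no p. When the trend over GC was subtracted, none of the 34 genes was 2-fold from it, against 12.3% of 11336 protein-coding genes. All 8 genes named above thus lay within 2-fold of the trend value at their base composition.

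**Figure D3:**
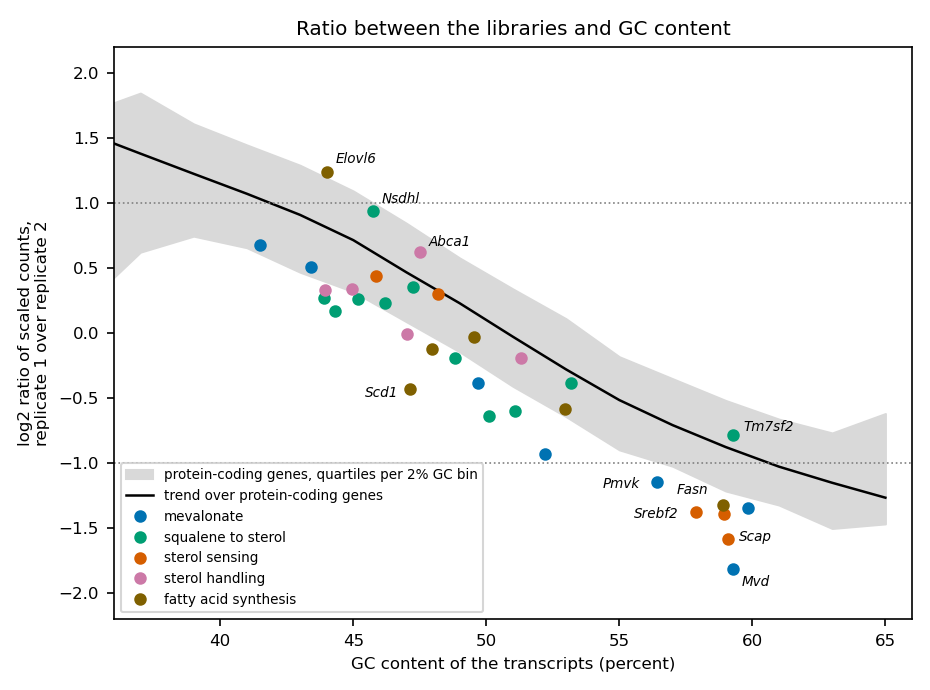
Log2 ratio of scaled counts, replicate 1 over replicate 2, against the GC content of each gene's transcripts in percent, with the 34 genes as points coloured by role, the lowess trend of protein-coding genes as a line, their quartiles per 2% bin in grey and dotted lines at 2-fold. The points follow the line downward and 30 of the 34 lie below it, with Elovl6, Nsdhl, Abca1 and Tm7sf2 above.

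More of the 34 genes lay toward replicate 2 with the GC trend removed than before its removal. Before it, 20 of the 34 did, beside 5630 of 11453 protein-coding genes. Below the trend lay 30 of the 34, against 51.3% of the 11336 protein-coding genes. The median distance was -0.44 on the log2 scale for the 34 genes (-0.16 without the removal) and -0.02 for protein-coding genes. Within the range of mean counts that the 34 genes span (88.5 to 8448.5), 8831 protein-coding genes had a median of -0.01 and 51.0% below the trend. The distance reached -0.92 for Mvd, -0.88 for Scd1, -0.75 for Fdps, -0.73 for Fdft1 and -0.70 for Scap. Above the trend were Elovl6 at 0.42, Nsdhl at 0.31, Abca1 at 0.22 and Tm7sf2 at 0.12. By role the genes below were 7 of 7 in the mevalonate pathway (median -0.49), 9 of 11 from squalene on (-0.43), 5 of 5 in sensing (-0.52), 4 of 5 in storage and movement (-0.38) and 5 of 6 in fatty acid synthesis (-0.38). Each gene's distance is a ratio of 1 library to 1 and has no replicate check. Of the 10 erythroid markers 7 also lay below the trend (median -0.20), their summed TPM was higher in replicate 2, and their part in the result was not tested.

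Genes around the pathway, from lists of 81 measured genes, were set beside the 34. Of the 81, 65 were detected (80.2%, against 45.5% of protein-coding genes). Of the 72 with at least 10 counts and a GC value 47 lay below the trend (median -0.10). The lists differed: 8 of 9 genes of SREBP processing and degradation (median -0.13) and 11 of 14 of fatty acid elongation and desaturation (-0.29) lay below, against 5 of 13 of sterol export, transfer and LXR (0.07). All 6 listed genes for the supply of acetyl-CoA and NADPH were detected, which does not show that the supply is complete. Highest were the citrate carrier gene Slc25a1 at 46.1 ± 19.6 TPM, Acat1 at 28.0 ± 8.25 and Idh1 at 12.6 ± 2.70. Lowest were Acss2 at 7.68 ± 1.85 and Me1 at 5.89 ± 3.44 (SD, n = 2 throughout). Partners of the sterol enzymes were detected in 7 of 7 cases. Lbr, the nuclear envelope protein that is also a sterol reductase, had 165 TPM in replicate 1 and 47.2 TPM in replicate 2, above Tm7sf2 in both. Of the electron donors, Cyb5a stood at 58.0 ± 0.721 TPM, Cyb5r3 at 37.2 ± 15.4 and Cyb5b at 10.9 ± 0.0919, while Ebpl, a relative of Ebp, was lowest at 1.21 ± 0.177.

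All 9 listed genes of SREBP processing and sterol-regulated degradation were detected (median 27.6 TPM). The ubiquitin ligase genes Syvn1 (50.8 ± 37.1 TPM) and Rnf139 (35.2 ± 13.2) were among its 3 highest, and Mbtps2, the membrane protease that frees SREBP (9.83 ± 1.31), was among its 2 lowest. The prenyl branch, which takes farnesyl diphosphate for lipid anchors and dolichol, was detected in 10 of 10 cases (median 10.9 TPM), from Fnta (47.9 ± 8.41), Rabggtb (25.8 ± 8.13) and Nus1 (18.3 ± 4.29) down to Ggps1 (6.07 ± 2.13) and Rabggta (4.07 ± 2.63).

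In the remaining lists a smaller share was detected (62.5%, 61.1% and 80%, in order), still above the 45.5% of protein-coding genes. Of 16 genes for sterol export, transfer and the LXR oxysterol receptors, 10 were detected (median 5.16 TPM). The receptor gene Nr1h2 had 111 TPM in replicate 1 and 376 TPM in replicate 2, Scarb1 had 58.4 ± 32.5 TPM and Mylip 48.2 ± 12.7, whereas the oxysterol-forming Ch25h and Cyp27a1 had 0 reads in both libraries. Of 18 genes for fatty acid elongation and desaturation, 11 were detected (median 4.48 TPM). Tecr, the reductase of the elongation cycle, had 119 ± 13.5 TPM, Fads2 65.6 ± 35.2 and Elovl5 28.6 ± 5.56, while Elovl2 had 0.0100 and 0 TPM and Thrsp had 0 reads in both libraries. Of 15 genes for fatty acid activation and glycerolipid synthesis, 12 were detected (median 8.41 TPM), with Acsl3 at 116 TPM in replicate 1 and 60.9 TPM in replicate 2, Lpin2 at 44.8 ± 23.4 and Agpat1 at 34.01 ± 21.3, and with Lpin3 at 0.410 ± 0.255 and Agpat3 at 0.0450 ± 0.0636 lowest.

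**Figure D4:**
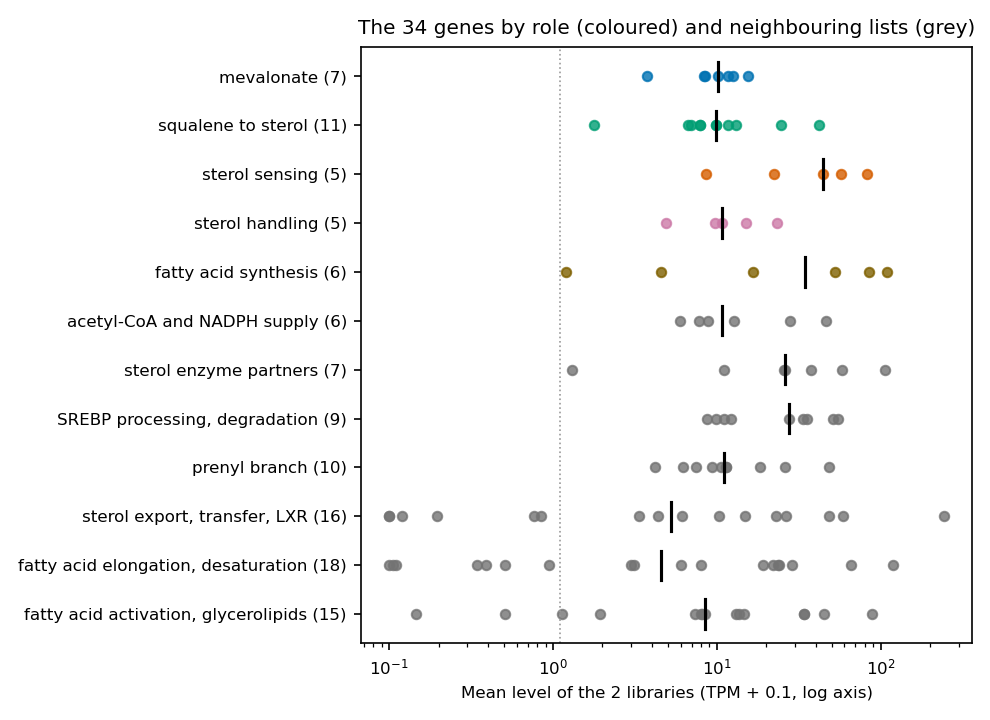
Mean level of the 2 libraries (TPM + 0.1, log axis) for each gene, with the 34 genes by role in colour above and the neighbouring lists in grey, a bar at each median, the number of genes in brackets and a dotted line at 1 TPM. Scd1, at a mean of 1.095 TPM, is the member nearest the line, and genes left of it occur in the export, elongation and activation lists.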

How the data were processed

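PolyA RNA of MEL cells given 2% DMSO for 5 days was measured in 2 libraries, 1 group. The authors deposited 1 gene and 1 transcript table per library on mm10 with the GENCODE M4 annotation, per the submitters' file lists. No source used here names the quantification program or the aligner (not given in the sources used here). Expected counts (estimated reads, not whole where reads are shared) were deposited unscaled, per the file headers. Per the file headers, the authors' length-scaled units were TPM and FPKM, beside posterior mean TPM and credibility bounds of unstated level. The deposited transcript tables give each transcript's percent of its gene's TPM. Estimation splits reads among copies and transcripts, and short transcripts get high TPM from few reads.

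Symbols, classes and coordinates came from GENCODE M21, matched by Ensembl ID (42462 of 43346 genes). The 26248 rows with numeric names and 97 spike-in rows name no gene and were left out; reads on numeric rows made up 0.0294% and 0.0465% in replicates 1 and 2. Depth was 26149725 and 14149299 estimated reads. Rounded counts were scaled with TMM (edgeR 4.0.16) or size factors (DESeq2 1.42.0) in R 4.3.3, and log2 ratios used a prior count of 1. GC content was averaged over a gene's transcripts by TPM, and the trend was fitted by lowess (span 0.3, 3 iterations) to protein-coding genes averaging 100 counts or more. Copies were sought with BLAST+ 2.17.0 (at least 95% identity over 80% of the copy and 200 bases). Promoters came from RefSeq, GRCm38.p6. Other steps used Python 3.11.15, pandas 2.3.3, numpy 2.4.6, scipy 1.17.1, statsmodels 0.14.6 and matplotlib 3.10.9. The ratio step was tested on simulated counts with a known change in some genes and no GC trend. That test therefore says nothing about the GC trend in the real libraries.

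The 34 genes and all lists were chosen with earlier results of these data known. All 34 genes were named, with the 3 highest and 2 lowest of each neighbouring list by mean TPM. Faxdc2 had no match and was not analysed here, and some genes of these pathways and lists are not reported here. With 1 group, nothing was tested between conditions. The distance from the GC trend and its alternatives were added after the data were seen.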

Additional observations from a re-analysis of the deposited data

How the results depend on the processing

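No paired analysis was possible because there was 1 group and no comparison between groups. With either library left out, detected genes numbered 33 to 34, the median level was 9.20 to 13.2 TPM, and the log2 ratio was 6.10 to 6.51 for Scd2 over Scd1, 2.72 to 2.81 for Insig1 over Insig2 and -0.91 to -0.78 for Srebf2 over Srebf1. A limit of 10 TPM left 14 genes detected. The median log2 ratio between the libraries (-0.16 with TMM) was -0.47 with total counts, where the median of protein-coding genes also moved, to -0.29, and -0.44 with the GC trend removed, which left 0 genes past 2-fold in place of 8. Insig1 over Insig2 had a log2 ratio of 2.41 with posterior mean TPM, 2.88 with coding transcripts and 2.92 with expected counts, against 2.77. Srebf2 over Srebf1 turned its sign, to 1.98 with coding transcripts and 1.33 with expected counts, against -0.84, since the short Srebf1-210 weighs less by either. Among the 19 genes that averaged 10 TPM or more, 1 leading transcript (that of Ebp) was not coding by share of reads, in place of 4. The background share by reads is not given here. Below 10 TPM, Lss-204 (84.2% of reads in replicate 1 and 47.2% in replicate 2) also led by reads. So did Msmo1-206 (41.7% and 44.6%), just ahead of the coding Msmo1-201 (41.3% and 44.3%). CACNCCAC, 1 letter shorter, was in 3 windows (Acat2, Hmgcs1 and Insig1; 6.24% of all windows). Genes below the GC trend numbered 30 of 34 with DESeq2 size factors and with a lowess span of 0.6, 28 of 32 with at least 100 counts, and 26 of 34 on the ratio of TPM (median -0.39). A single gene's log2 ratio is 1 library against 1 and has no replicate spread, so its shifts were set against counting error. Log2 ratios moved beyond that error in 29 of 34 with the GC trend removed, 30 with total counts and 25 on the ratio of TPM. With DESeq2 size factors or a prior count of 5 they did so in 0. Mean levels moved beyond the spread of the 2 libraries in 7 with posterior mean TPM. Low counts limit Scd1 (97.4 estimated reads in replicate 1 and 88.4 in replicate 2) and Mvk (65 and 112), and with it the Mvk ratio.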

Other observations

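Levels of some paralogs not described above are given here. They were chosen after their values were seen, so they stand for no pattern across families. Of the acetyl-CoA carboxylases, Acaca had 18.1 TPM in replicate 1 and 14.7 TPM in replicate 2, and Acacb, the form tied to mitochondria, had 1.25 and 4.77 TPM. Of the cholesterol esterifying enzymes, Soat1 had 11.5 and 9.90 TPM and Soat2 had 4.42 and 7.68 TPM, so the 2 ranges did not overlap. Of the elongases, Elovl5 (32.5 and 24.6 TPM) and Elovl1 (12.7 and 35.1 TPM) stood above Elovl6 in both libraries, while Elovl7 had 0.410 TPM in each, Elovl3 had 0.0900 and 0.400 TPM and Elovl4 had 0 and 0.0200 TPM. Gramd1a, a sterol carrier at membrane contacts, had 13.2 and 32.7 TPM, against 0.720 and 0.760 TPM for Gramd1c and 0.140 and 0.0500 TPM for Gramd1b. The oxysterol receptor gene Nr1h3 had 0.560 and 0.760 TPM beside the far higher Nr1h2. These are levels in 2 libraries with no test.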
